A study of Mus musculus with 23 samples.

Results

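Injured spinal cord without any depot was described here from 8 RNA-seq libraries of mice, 4 of ribosome-bound RNA (HA) and 4 of flow-through RNA (FT), out of 23 libraries in the whole series. They were taken as all libraries labelled SCI only, and HA and FT were paired by the number in their titles (9596, 9843, 9874 and 9935), which gave 4 of the 10 pairs in the series. Both groups came from young adult mice that carry mGFAP-Cre and RiboTag, although the genotype label reads wild type. All 8 libraries were of spinal cord tissue taken 14 days after a severe crush injury (spinal cord injury, SCI) at thoracic level 10, from the central 3 mm of the lesion. The HA group held RNA precipitated through a hemagglutinin tag on ribosomes, and the FT group held the RNA of the same tissue samples that was not precipitated. The other libraries came from injured mice that received a hydrogel depot 2 days after injury, and they are used below only for one comparison.

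RiboTag mice carry a ribosomal protein that gains the tag only in cells with Cre recombinase and in their descendants. Here Cre is driven by a mouse Gfap promoter, which is active in astrocytes and can also be active in neural stem and progenitor cells. Precipitating the tag pulls down ribosomes with the mRNAs bound to them, so the HA fraction is a readout of mRNAs that are engaged by ribosomes in tagged cells. The flow-through is meant to hold RNA of the other cells, but it can also hold nuclear RNA, RNA free of ribosomes and ribosomes that escaped precipitation. After a crush, astrocytes around a lesion become reactive and raise GFAP, while microglia and blood-derived macrophages fill the lesion core and take up myelin debris.

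Most reads of both fractions fell on a single locus. Yam1, a noncoding locus that collects ribosomal RNA reads, held 91.1% ± 2.28 of the counts in HA libraries and 91.3% ± 1.38 in FT libraries (SD, n = 4 each). Total counts were 18497234 to 24335808 in HA and 2241508 to 5432216 in FT. Protein-coding counts, without the ribosomal RNA collecting gene Lars2, were 202251 to 780271 in HA and 26899 to 255152 in FT, with number 9935 lowest in both. The protein-coding share was 2.08% ± 1.32 in HA and 2.76% ± 1.45 in FT, lower in HA in 4 of 4 pairs (difference -0.676 percentage points, two-sided exact sign-flip permutation p = 0.13, the smallest that 4 pairs allow). Levels below are CPM, counts relative to a library size scaled to the typical gene, so they do not add up to the same total in each library. Yam1 was itself called higher in HA by 0.76 on this scale (adjusted p = 3.49e-05), as were Lars2, Gm23935, Gm24187 and Gm24270 by 0.82 to 1.17. With plain library totals the difference of Yam1 was 0.00 with the other sign, and without the block none of these 5 was called (adjusted p = 0.183 to 0.511). Values of single libraries are given in the order 9596, 9843, 9874 and 9935. Nothing in the labels says that each number is a separate animal, so the spread behind each p-value may be only technical.

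Of 3622 genes tested, 495 (13.7%) differed between HA and FT at an adjusted p under 0.05, by edgeR's quasi-likelihood test with the title number as a block. Among them 238 (6.57% of those tested) were higher and 257 (7.1%) lower in HA. With plain library totals in place of the scaling, the median difference of all genes moved by -0.737 on the log2 scale, and 81 were higher and 547 lower. Directions below are therefore relative to the typical gene. Without the block 421 genes were called, and without number 9843 it was 313. With HA counts thinned at random to the FT total of the same number, 380 of 1640 genes tested were called. Lost or gained calls given below for single genes do not cover every alternative. In 203 of the higher genes all 4 HA libraries stood above all 4 FT libraries, and in 210 of the lower genes all stood below. Over all genes tested the same held for 9.69% (above) and 9.36% (below), whether called or not. Calls were more frequent at higher levels, with 325 of 848 genes called where 5 CPM was needed in 4 libraries. Counts in lists of abundant genes are therefore not to be set against 13.7% alone.

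**Figure D1:**
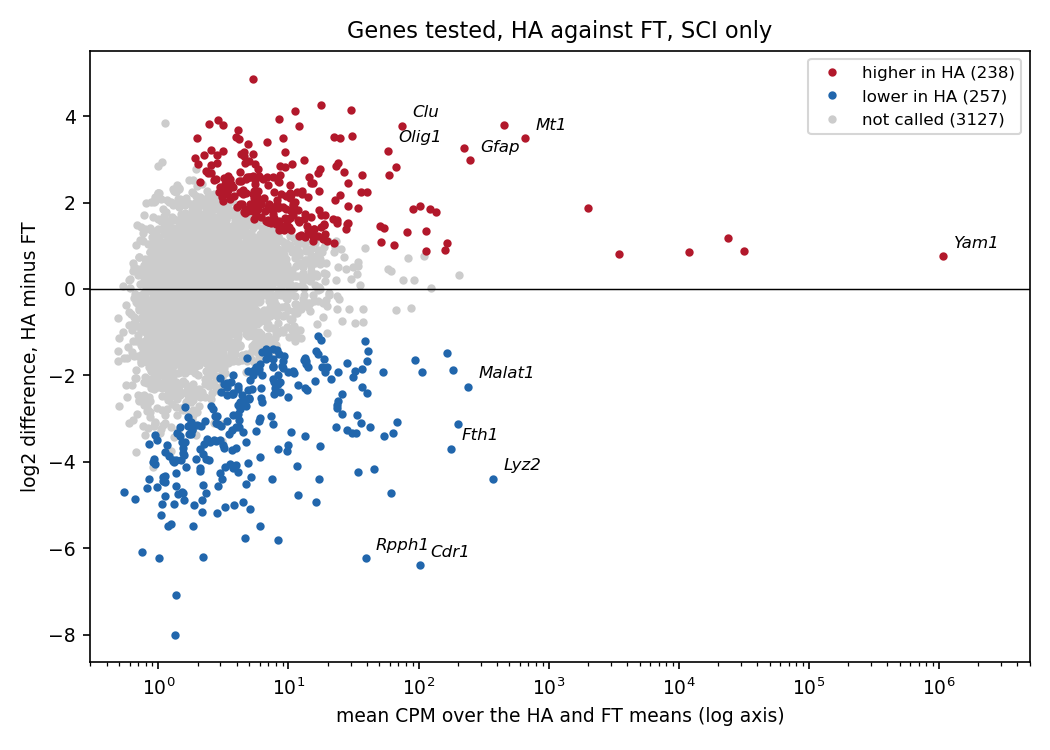
Each point is a gene tested, with its mean CPM on a log axis and its log2 difference, HA minus FT, in injured cord without a depot. Red points are the 238 genes called higher in HA, blue the 257 called lower and grey those not called. Gfap, Mt1 and Clu lie above 2 on the vertical axis, and Lyz2, Rpph1 and Cdr1 below -4.

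Genes of astrocytes were higher in HA. Of 21 astrocyte markers 16 were listed in both tables. Aldh1l1, Fgfr3, Acsl6 and Slc39a12 were listed only for HA, with at most 22 counts in any injury-only HA library. Of 15 astrocyte markers tested, 13 were higher and 0 lower, with a median log2 difference of 1.89 against 0.027 over all genes tested. With plain library totals 7 were higher and 0 lower. Gfap, the intermediate filament of reactive astrocytes (chromosome 11, 102887336 to 102900912, mm10), stood at 309, 371, 447 and 637 CPM in HA against 52.7, 55.1, 48.1 and 60.3 CPM in FT. Every HA library lay above every FT library, and the log2 difference was 2.98 (SE 0.28, adjusted p = 4.75e-09). Clu, a secreted chaperone, stood at 117, 97.3, 202 and 136 CPM in HA and at 12.3, 8.03, 9.82 and 8.89 CPM in FT, a log2 difference of 3.77. Slc1a2, the main glutamate transporter of astrocytes, stood at 154, 116, 132 and 159 CPM in HA against 55.0, 37.5, 25.6 and 41.9 CPM in FT, and Ntsr2, a neurotensin receptor, was higher by 3.16 on the log2 scale. Sox9, a transcription factor of glia, averaged 10.2 ± 3.53 CPM in HA and 1.44 ± 0.977 CPM in FT, and Sparcl1, a secreted matrix protein, was higher by 2.63. Atp1b2, a sodium pump subunit, averaged 6.09 ± 1.42 CPM in HA and 1.11 ± 0.696 CPM in FT, and lost its call without number 9843 (adjusted p = 0.0979) and without number 9874 (0.0658).

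The flow-through kept a clear level of several astrocyte transcripts. Aqp4, the water channel of astrocyte endfeet, stood at 66.5, 67.8, 70.2 and 71.9 CPM in HA against 48.4, 28.4, 36.2 and 20.9 CPM in FT. S100b, a calcium-binding protein of glia, averaged 208 ± 30.4 CPM in HA and 112 ± 17.0 CPM in FT. These were the smallest differences among the called astrocyte markers, at 1.10 and 0.90 on the log2 scale (adjusted p = 0.0178 and 0.0187). The call of Aqp4 was lost without the block (adjusted p = 0.0515), without number 9843 (0.113) and without number 9935 (0.0794). It was also lost with thinned HA counts (0.0696) and with plain library totals (0.543). The call of S100b was lost without the block (0.0641), without number 9843 (0.115) and without number 9874 (0.0571). Thinned HA counts (0.164) and plain library totals (0.796) lost the call of S100b too. Glul, which makes glutamine from glutamate, stood at 77.6, 68.8, 72.5 and 112 CPM in HA against 69.7, 68.6, 64.2 and 76.2 CPM in FT, and the difference of 0.22 (SE 0.29) did not pass the test (adjusted p = 0.702).

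**Figure D2:**
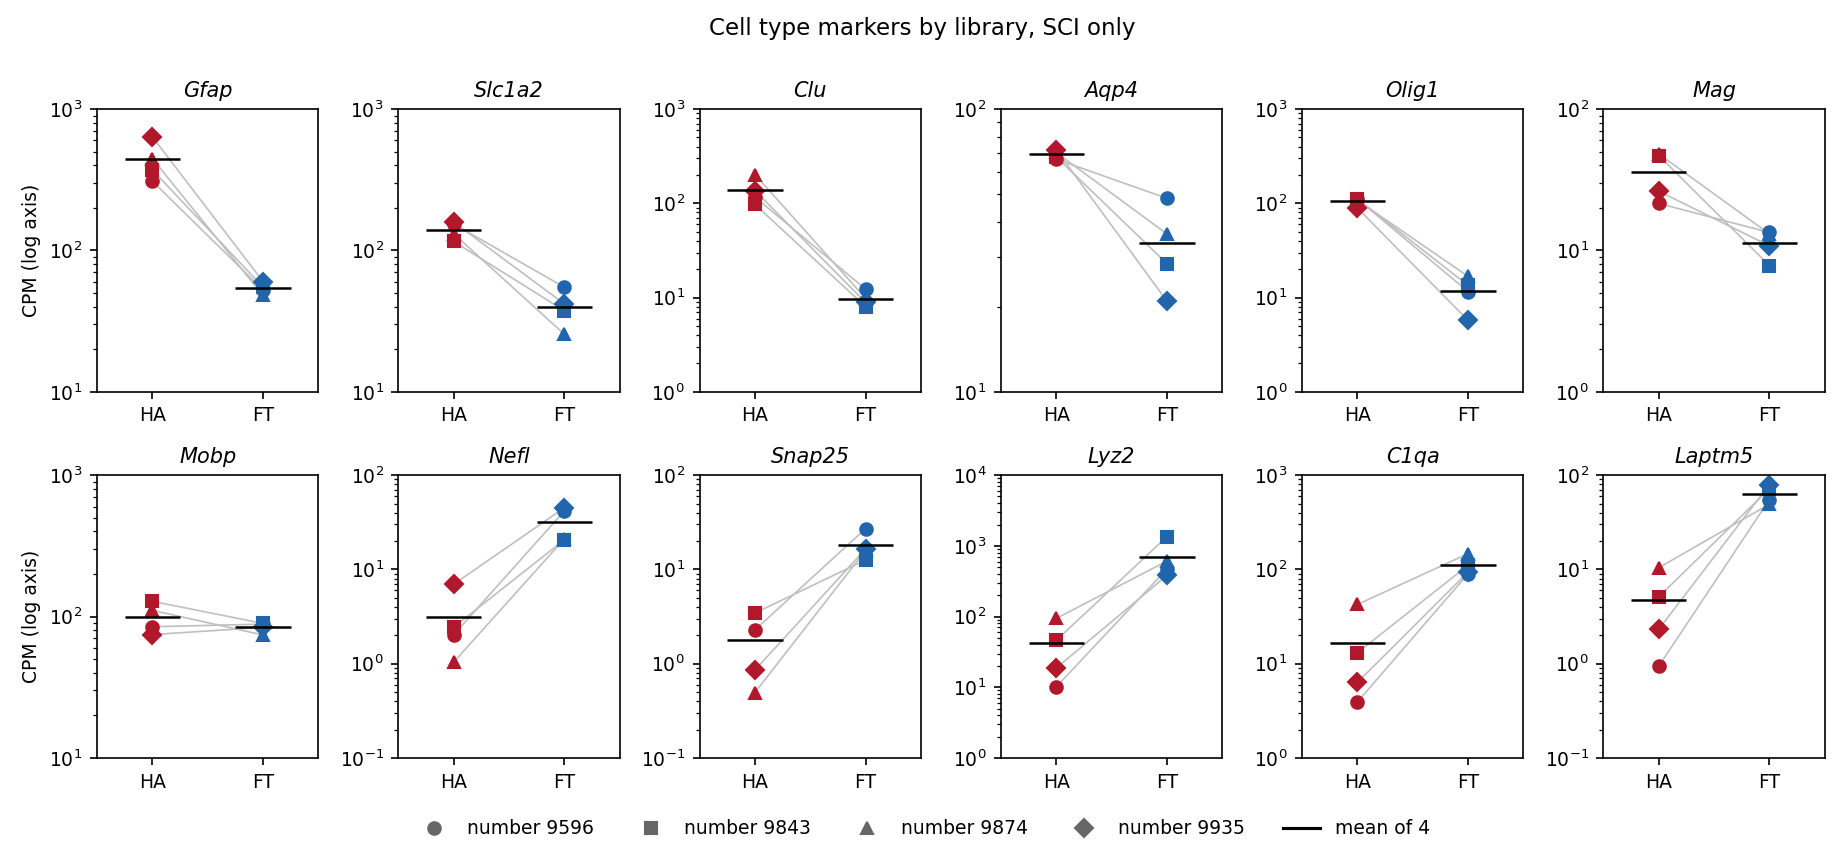
Each panel shows the CPM of a marker gene on a log axis in the 4 HA libraries (left, red) and the 4 FT libraries (right, blue), with grey lines joining libraries of the same number and black bars for the mean of 4. Astrocyte and Olig1 values are higher in HA, Mobp values overlap, and neuron and microglia values are lower in HA.

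Genes that buffer ions and couple astrocytes to each other were mostly higher in HA, 9 of 10 tested and 0 lower, with a median of 1.67 on the log2 scale. Gja1 and Gjb6, the connexins of astrocyte gap junctions, were higher by 1.88 and 2.59. Kcnj10, the potassium channel Kir4.1, averaged 73.4 ± 10.0 CPM in HA and 27.2 ± 6.67 CPM in FT. Hepacam, an adhesion protein of astrocytes, was higher by 1.84 and Slc4a4, a bicarbonate cotransporter, by 1.50. With plain library totals the list held 2 calls. Without number 9843 it held 5, and Slc4a4 was then no longer called (adjusted p = 0.0895).

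Metallothioneins, small proteins that bind zinc and other metals were higher in HA, 3 of 3 tested. Mt1 stood at 1021, 1050, 1323 and 1440 CPM in HA against 109, 90.5, 130 and 99.7 CPM in FT (log2 difference 3.49, adjusted p = 5.1e-11). Mt2 averaged 840 ± 74.6 CPM in HA and 60.6 ± 10.8 CPM in FT. Mt3, the form first described in brain, stood at 4.30, 6.80, 3.21 and 18.4 CPM in HA against 0.889, 0.434, 0.818 and 3.17 CPM in FT, and was higher by 2.60.

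Reactive astrocyte genes were listed in both tables for 7 of 22 members, and of 6 tested 3 were higher and 1 lower. Serpina3n, a protease inhibitor that is induced in reactive astrocytes, stood at 284, 158, 238 and 161 CPM in HA against 72.4, 51.6, 64.4 and 53.3 CPM in FT. Complement C3 averaged 9.54 ± 4.22 CPM in HA and 2.15 ± 1.61 CPM in FT, and was higher by 2.27 (adjusted p = 0.00421). H2-D1, a class I antigen-presenting molecule, stood at 5.98, 7.38, 16.1 and 6.96 CPM in HA against 22.8, 30.2, 46.4 and 23.5 CPM in FT, lower in HA by a log2 difference of -1.81. Vim, an intermediate filament shared by many cells, averaged 15.9 ± 6.65 CPM in HA and 10.6 ± 5.22 CPM in FT and was not called (adjusted p = 0.329). The chemokine Cxcl10 stood at 3.88, 12.5, 19.0 and 1.34 CPM in HA against 3.04, 1.74, 2.45 and 1.27 CPM in FT. Its difference of 1.73 did not pass (adjusted p = 0.065), but did without number 9596 (0.031) and without number 9935 (0.0329).

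Secreted inhibitors of proteases were higher in 5 of 7 tested and lower in 1 (3 higher with plain library totals). A2m, a broad trap for proteases, stood at 28.6, 19.6, 26.3 and 39.7 CPM in HA against 7.70, 5.86, 4.70 and 4.45 CPM in FT. Serpine2 was higher by 1.52 on the log2 scale, and Timp3 and Timp4, inhibitors of metalloproteinases, by 2.59 and 2.01. Their relative Timp2 went the other way, at 14.0, 18.1, 43.4 and 10.5 CPM in HA against 53.9, 62.5, 66.3 and 53.3 CPM in FT (log2 difference -1.67, adjusted p = 0.00105). Cst3, which inhibits cathepsins, was high in both fractions, at 226 ± 91.9 CPM in HA and 179 ± 67.4 CPM in FT, and was not called.

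Genes of oligodendrocyte progenitors rose in HA too: 6 of 9 tested were called higher and 0 lower, with a median log2 difference of 2.14. Cspg4, Sox10 and Tnr had positive differences of 0.71, 1.40 and 1.84 but were not called. Of 14 markers on the list 9 were listed in both tables, and Pdgfra was not among them. Olig1, a transcription factor of the oligodendrocyte lineage, stood at 111, 111, 108 and 89.1 CPM in HA against 11.6, 13.4, 16.8 and 5.71 CPM in FT. Its difference of 3.20 (SE 0.34, adjusted p = 5.54e-08) rested on groups that did not overlap. Gpr17, a receptor of cells committed to become oligodendrocytes, was higher by 3.78, Olig2 by 2.88 and Cacng4 by 2.14. Bcan, the proteoglycan brevican, stood at 21.97, 15.7, 21.7 and 25.5 CPM in HA, against 1.19, 1.52, 1.64 and 0 CPM in FT. Ptprz1 was higher by 2.10 and lost its call without number 9874 (adjusted p = 0.103). Bcan, Olig1, Olig2 and Ptprz1 are also made by some astrocytes, and the Gfap promoter can be active in progenitors; the part of either in these values was not tested.

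Myelin genes of mature oligodendrocytes were mixed. Of 13 tested, 4 were higher and 0 lower, with a median of 0.63 that became -0.11 with plain library totals, where 0 were higher and 1 lower. Mag, a myelin adhesion protein, stood at 21.5, 46.9, 48.2 and 26.2 CPM in HA against 13.4, 7.81, 13.1 and 10.8 CPM in FT, and Cldn11, of myelin tight junctions, was higher by 1.51. Mal and the myelin transcription factor Myrf were higher by 1.25 and 1.11. Mobp, a protein of compact myelin, stood at 84.8, 128, 111 and 74.6 CPM in HA against 88.4, 89.4, 74.0 and 83.8 CPM in FT, with overlapping values and no call (adjusted p = 0.701). The list held 2 calls without number 9596, 1 without 9843 and 2 without 9874. Mag was not called without 9843 (adjusted p = 0.0827), Myrf not without 9596, 9843 or 9874 (0.107 to 0.159), and Mal not without any one of the 4 numbers (0.0579 to 0.148) nor without the block (0.0544). With thinned HA counts Mal and Myrf were not called either (0.11 and 0.111).

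Of 7 chondroitin sulfate proteoglycans and tenascins tested, matrix molecules laid down around lesions, 3 were called higher and 0 lower. Beside Bcan and Ptprz1 these were Cspg5, neuroglycan C, at 14.8 ± 3.25 CPM in HA and 2.36 ± 1.81 CPM in FT. Ncan, neurocan, averaged 9.38 ± 4.47 CPM in HA and 3.66 ± 2.39 CPM in FT and missed the threshold (adjusted p = 0.0675). Plxnb1, a semaphorin receptor, was higher by 2.85. Of 6 axon growth inhibitors and guidance genes tested, 2 were called higher and 0 lower. Of 10 axon growth supporting factors tested, 4 were called higher and 2 lower. Among factors known to support axon growth, Sdc4, a heparan sulfate proteoglycan, stood at 37.1, 51.5, 70.3 and 112 CPM in HA against 15.7, 12.6, 12.3 and 11.4 CPM in FT, and Sparc was higher by 2.96. Igf1, insulin-like growth factor 1, ran the other way, at 0.427, 1.18, 0.0493 and 0.976 CPM in HA against 4.07, 5.42, 8.18 and 11.4 CPM in FT (log2 difference -3.69, adjusted p = 0.000897). Sdc2, another syndecan, was higher by 2.35 and lost its call without number 9843 (0.162) and without number 9874 (0.172).

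Markers of neurons were lower in HA, 9 of 12 tested and 0 higher, with a median log2 difference of -3.29. Nefl, the neurofilament light chain, stood at 2.02, 2.43, 1.04 and 6.96 CPM in HA against 41.6, 20.6, 21.1 and 45.1 CPM in FT, a log2 difference of -3.62 (SE 0.43). The other neurofilament chains Nefm and Nefh were lower by -3.18 and -3.40, and Snap25, a protein of synaptic vesicle fusion, by -3.61. Stmn2, of growing axons, averaged 1.26 ± 0.714 CPM in HA and 7.31 ± 0.536 CPM in FT. Ina, a further neurofilament subunit, was lower by -3.48, Map2, of dendrites, by -3.52 and Scg2, of secretory granules, by -3.12. Map2 lost its call without number 9874 (adjusted p = 0.0557), and Scg2 without 9596 (0.0658) and without 9843 (0.0523). Thy1, a surface protein of neurons and other cells, stood at 6.78, 8.98, 7.55 and 12.7 CPM in HA against 13.0, 9.55, 9.61 and 19.7 CPM in FT and was not called. Slc17a6, the vesicular glutamate transporter of spinal neurons, was lower by -4.73 on few reads (63, 12, 8 and 3 counts in FT) and lost its call without number 9596 (adjusted p = 0.0723). HA and FT came from the same tissue, and in bulk fractions fewer tagged cells of a type and less bound RNA per tagged cell cannot be told apart. Whether the neuron marker reads in HA came from tagged cells at all was not tested.

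Markers of microglia and macrophages were lower in HA as well, with 12 of 13 tested lower in HA, 0 higher and a median of -3.48. Lyz2, a lysozyme of macrophages, stood at 10.1, 45.9, 94.0 and 18.7 CPM in HA against 468, 1347, 608 and 381 CPM in FT. Every HA library lay below every FT library (log2 difference -4.39, SE 0.36, adjusted p = 5.72e-10). The complement subunits C1qa and C1qc were lower by -3.32 and -4.17, and C1qb by -3.33 with values that overlapped, at 0.912, 2.77, 28.3 and 6.22 CPM in HA against 49.0, 45.6, 87.7 and 27.9 CPM in FT. Tyrobp and Fcer1g, adaptors of immune receptors, were lower by -4.75 and -3.33, and Cd53 and Laptm5, membrane proteins of microglia and macrophages, by -4.51 and -4.23. Trem2, a lipid receptor of microglia, averaged 0.497 ± 0.256 CPM in HA and 5.49 ± 1.63 CPM in FT.

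The remaining level of this list in HA differed between numbers. Its summed level was 30.3, 104, 266 and 51.9 CPM in HA against 928, 2056, 1358 and 791 CPM in FT, so number 9874 was highest in HA. Tyrobp stood at 0.57, 0.252, 5.52 and 0 CPM in HA, against 12.2, 23.6, 38.2 and 14.6 CPM in FT. Without number 9874, again 12 of 13 were lower, with a median of -3.97. The summed level of neuron markers was 24.8, 25.7, 19.5 and 35.9 CPM in HA against 197, 100, 141 and 207 CPM in FT, so number 9874 was not highest there. How far the higher microglia level of number 9874 in HA bears on other genes was not tested.

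Few markers of other cell types were listed in both tables. Of 15 endothelial markers 2 were listed in both tables, and neither was called. Of 11 pericyte markers 3 were listed in both tables and 2 tested, with 0 calls. Of 13 fibroblast and meningeal markers, 3 were tested and 2 lower. Col1a2, the other tested member and also a chain of collagen I, was not called and had a positive log2 difference of 0.60. Col1a1, a collagen of scar fibroblasts, averaged 0.397 ± 0.357 CPM in HA and 7.08 ± 4.85 CPM in FT. Fn1, fibronectin, was lower by -1.87 on the log2 scale. Its call was lost without the block (adjusted p = 0.722) and without numbers 9596, 9843 or 9935 (0.21, 0.162 and 0.214), and its HA value of number 9874, 14.7 CPM, stood above the other 3 (0.456 to 1.09 CPM). With thinned HA counts (0.0967) and with all 10 pairs in the fit (0.0691) Fn1 was not called either. None of the lymphocyte, neutrophil or red blood cell genes listed was in both tables.

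Lysosomal genes were lower in HA, 10 of 18 tested and 0 higher (median -1.81). Ctsd, a lysosomal protease, stood at 4.45, 9.99, 26.8 and 5.49 CPM in HA against 80.4, 137, 101 and 72.4 CPM in FT. Ctsz, another cathepsin, was lower by -2.89, and Gpnmb, a glycoprotein of lipid-laden macrophages, by -3.07. Ctsb was lower by only -1.49, at 87.2 ± 28.2 CPM in HA and 245 ± 76.1 CPM in FT. Lamp1, a general membrane protein of lysosomes, averaged 56.0 ± 8.10 CPM in HA and 78.1 ± 10.2 CPM in FT and was not called (adjusted p = 0.323). Its level was lower in HA in 4 of 4 pairs. Lamp1 was called lower with thinned HA counts (0.0422), the 5 CPM filter (0.0452) and plain library totals (0.00373). Both Ctsb and Lamp1 were chosen after their values were seen. In Ctsz and Npc2 number 9874 was the highest of the HA libraries, as with the microglia markers.

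**Figure D3:**
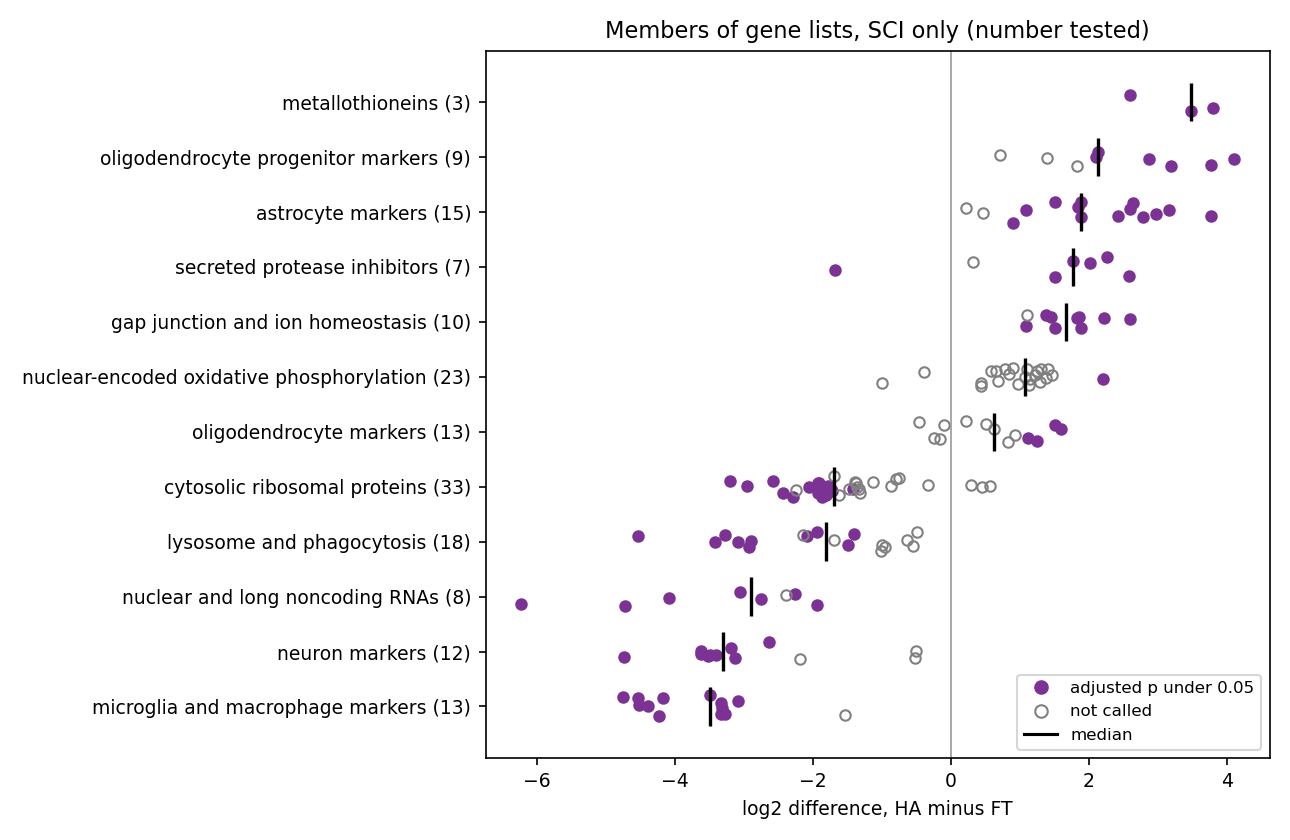
Each point is a tested member of a gene list, placed by its log2 difference, HA minus FT, with filled points for an adjusted p under 0.05, open points for the rest and a black bar for the median. Astrocyte, progenitor and metallothionein genes lie to the right, and neuron, microglia, nuclear RNA, lysosomal and ribosomal protein genes to the left.

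Nuclear and noncoding RNAs were lower in HA, 7 of 8 tested. Malat1, which stays in the nucleus, stood at 64.2, 167, 67.3 and 56.5 CPM in HA against 510, 431, 254 and 383 CPM in FT. Rn7sk, which holds back transcription elongation, stood at 0.598, 10.3, 3.06 and 13.2 CPM in HA against 76.7, 120, 114 and 149 CPM in FT, and Rpph1, the RNA of ribonuclease P, was lower by -6.22 (SE 0.52). Snhg11 was lower by -2.75. Rian, from an imprinted cluster, was lower by -4.08 and lost its call without number 9596 (adjusted p = 0.0649) and without number 9935 (0.101). Xist, of the inactive X chromosome, was lower by -3.05 and lost its call without the block (0.0577). Also on the list, Neat1, the RNA of paraspeckles, was not called (adjusted p = 0.0626), at 0.723 ± 0.626 CPM in HA and 3.56 ± 2.73 CPM in FT. The Cdr1 locus had the most negative difference among the abundant genes, at 4.45, 4.45, 0.395 and 2.44 CPM in HA against 203, 155, 214 and 242 CPM in FT (log2 difference -6.39, SE 0.49). A circular antisense RNA is made from the same locus, and without a stated strand setting their reads cannot be told apart.

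Part of the translation machinery was lower in HA. Of 33 ribosomal protein genes tested, 16 were lower and 0 higher, with a median log2 difference of -1.69. Rps12 stood at 8.29, 12.4, 4.79 and 8.42 CPM in HA against 54.8, 78.8, 89.6 and 79.4 CPM in FT. Rpsa averaged 77.7 ± 17.4 CPM in HA and 290 ± 86.8 CPM in FT, and Rps4x, Rps24 and Rplp1 were lower by -2.42, -2.58 and -1.91. Of 14 translation factors 4 were lower and 0 higher, with a median of -0.32. Among the 4 was Eef1a1, the elongation factor that brings tRNA to the ribosome, at 46.8, 41.0, 54.1 and 23.3 CPM in HA against 307, 499, 408 and 223 CPM in FT. Eef1a2, the form of neurons and muscle, was lower by -3.20. Eef2 and Pabpc1, which binds poly(A) tails, were lower by -1.64 and -2.13. Ferritin behaved likewise, with Fth1, the heavy chain that stores iron, at 14.2, 31.0, 36.2 and 22.9 CPM in HA against 203, 383, 381 and 344 CPM in FT, and the light chain Ftl1 lower by -3.54. Ribosomal proteins have many processed copies in the genome, and how the authors' counting split such reads is not given in the sources used here.

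**Figure D4:**
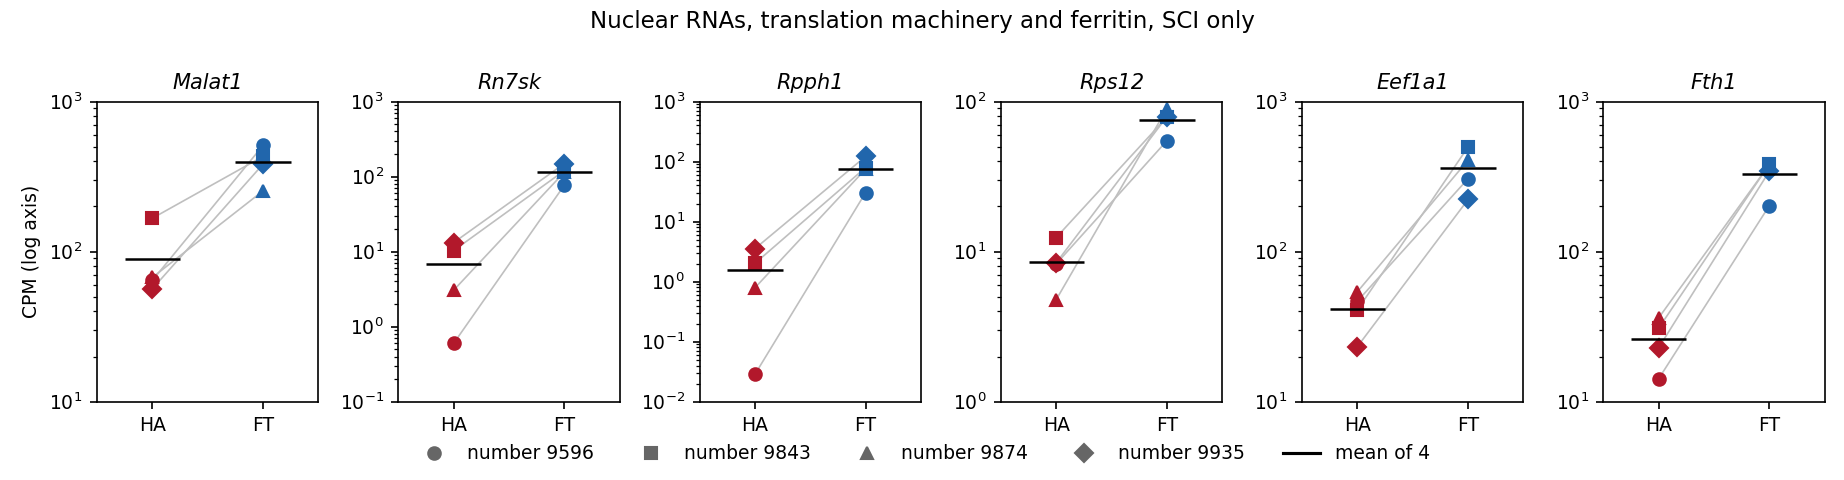
Each panel shows the CPM of a gene on a log axis in the 4 HA libraries (left, red) and the 4 FT libraries (right, blue), with grey lines between libraries of the same number and black bars for means. All 6 genes are lower in HA in every pair, and the HA and FT values do not overlap.

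Of 23 nuclear genes of oxidative phosphorylation, 1 was higher (Uqcrfs1, by 2.21 on the log2 scale) and 0 lower, with a median of 1.08. That count is not above the 6.57% called higher over all genes tested, although 21 of the 23 differences were positive. Cox7c and Uqcrc1 were not called here but were called higher by DESeq2 (adjusted p = 0.0428 and 0.044). Of 11 genes of glycolysis, lactate and creatine metabolism tested, 3 were higher and 0 lower, and 1 was higher and 1 lower with plain library totals. Ckb, brain creatine kinase, stood at 388, 272, 407 and 541 CPM in HA against 49.9, 32.3, 41.5 and 41.9 CPM in FT, and Aldoc, the aldolase of astrocytes, was higher by 1.89. Pfkl, a phosphofructokinase, was higher by 2.30 and lost its call without number 9843 (adjusted p = 0.0898) and without number 9935 (0.0961). Tpi1, triosephosphate isomerase, stood at 4.67, 3.11, 13.5 and 8.42 CPM in HA against 11.3, 14.3, 14.1 and 20.9 CPM in FT and was not called (log2 difference -1.20, adjusted p = 0.0613). It was called lower in 6 of 14 alternatives, among them DESeq2 (0.0308), without number 9874 (0.039), thinned HA counts (0.0152) and plain library totals (0.00278). Of 14 genes of cholesterol, fatty acid and lipoprotein metabolism, 4 were higher and 1 lower, and with plain library totals 1 and 2, with the median turning from 0.57 into -0.18. Scd2, which desaturates fatty acids, stood at 149, 172, 131 and 200 CPM in HA against 72.8, 70.3, 42.3 and 75.6 CPM in FT, and Fasn and Hmgcs1 were higher by 2.21 and 1.71. Scd1, a second desaturase, was higher by 1.28 and lost its call without number 9843 (0.0668), 9874 (0.0672) or 9935 (0.067). Apoe, the main lipid carrier of brain, was lower by -1.20 (adjusted p = 0.0142). Its values overlapped, at 13.4, 19.9, 47.1 and 20.01 CPM in HA against 49.5, 57.7, 64.6 and 37.5 CPM in FT, and the call was lost without the block (0.0915), without number 9596 (0.0966) and without number 9843 (0.124).

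Among other genes with large differences and high levels, Kcne1l, a small subunit of potassium channels, was higher by 4.13. S100a6, a calcium-binding protein, was higher by 3.53, Prdx6, an antioxidant enzyme, by 2.82, Itpkb, an inositol phosphate kinase, by 2.64, Marcksl1 by 2.24 and Cpe, which processes neuropeptides, by 1.93. Of the glial transcription factors, 5 of 9 tested were higher, including Id3 by 2.97 and Nfix by 1.96. Cryab, a small heat shock protein, was the 1 called among 15 chaperones, at 45.5 ± 16.5 CPM in HA and 12.1 ± 5.54 CPM in FT. For the chaperones that count is near the 6.57% called higher over all genes tested. Calls of several smaller lists were lost when single numbers were left out. Of 10 actin genes tested 2 were higher, Cfl1 and Myl6, and 1 lower, Tmsb4x, against 6.57% and 7.1% of all genes tested. The median log2 difference of the 10 was -0.56, and 6 had a negative difference. Cfl1, which severs actin filaments, stood at 121, 113.5, 172 and 188 CPM in HA against 64.3, 84.4, 94.3 and 75.6 CPM in FT (log2 difference 0.88, adjusted p = 0.0332). Its call was lost without the block (0.0772) and without any one of the 4 numbers (0.0705 to 0.108). It was also lost with thinned HA counts (0.173), the 5 CPM filter (0.0616), all 10 pairs in the fit (0.063) and plain library totals (0.845). Myl6 lost its call without the block (0.0595) and without numbers 9843 or 9874 (0.107 and 0.151), and Tmsb4x without numbers 9596, 9843 or 9874 (0.105, 0.242 and 0.159). Myl6 was also not called with thinned HA counts (0.212). Of 6 immediate early genes 2 were lower, Atf3 by -3.32 and Klf6 by -1.91, and 0 were called without numbers 9596, 9843 or 9874. Atf3, a stress-induced factor, lost its call without numbers 9843, 9874 or 9935 (0.249, 0.069 and 0.0615). Klf6 lost its call without the block (0.152) and without numbers 9596, 9843 or 9874 (0.189, 0.0645 and 0.14). Ntrk2, the receptor of BDNF, averaged 23.8 ± 11.3 CPM in HA and 9.65 ± 1.33 CPM in FT, and lost its call without numbers 9596, 9843 or 9874 (0.153, 0.0639 and 0.245). Thinned HA counts (0.0563) and plain library totals (0.528) lost the call of Ntrk2 too. Ntrk2 was the 1 called among 4 growth factor receptor and feedback genes tested. Ccnd2, a cyclin, was higher by 2.59, the 1 called among 5 proliferation genes tested. It lost its call with plain library totals (0.0563). Of 15 antioxidant and glutathione genes tested, 2 were higher, Prdx6 and Gsta4, and 1 lower, Gpx3. The antioxidant enzyme Gsta4 was higher by 3.03 and lost its call without numbers 9843, 9874 or 9935 (0.0898, 0.0997 and 0.0546). Gpx3, a secreted glutathione peroxidase, was lower by -1.18 and lost its call without the block (0.113) and without numbers 9596, 9843 or 9935 (0.263, 0.137 and 0.158). H2-Eb1, a class II antigen-presenting molecule, was lower by -3.83 and lost its call without the block (0.448) and without numbers 9596, 9843 or 9935 (0.184, 0.141 and 0.154).

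Mpeg1, a pore-forming protein of macrophages, was lower by -3.11, and Tgfbr1, a receptor of TGF-beta, by -4.06. Tgfbr1 was the 1 called among 7 genes of cytokines, chemokines and their receptors tested. Ifit3, an interferon-induced gene, was higher by 2.17. Of 10 antigen presentation and interferon response genes tested, 1 was called higher and 2 lower. Over all genes tested, 6.57% were called higher and 7.1% lower.

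Levels of different genes were compared per transcript length. Of 8676 coding genes with a length, Mt1 led in HA with 165520 ± 13612 per-length units (counts per kilobase, scaled to the same total in each library, as in TPM; SD, n = 4), followed by Mt2, Ckb, Cst3, Gfap at 12470 ± 3160, S100b, Cfl1, Ywhae, Serpina3n and Rplp1. Of 4768 in FT, Lyz2 led with 53510 ± 28492, followed by Fth1, Rplp1, Eef1a1, Cst3, Mt1 at 20442 ± 3353, Rps12, Rpsa, Cdr1 and Mt2. The spreads of neighbouring genes overlap in many places of these orders, as with Ckb and Cst3 in HA.

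Many genes were listed in 1 of the tables only, and no row of either table had a total under 10 counts. Of 4582 genes listed only for HA, 127 had at least 10 counts in each of the 4 HA libraries. The highest were Pcdhgc3, a protocadherin, with 359, 82, 269 and 123 counts, Fam181b with 221, 66, 58 and 57, and Gpld1, Vwa1, C1ql1, Dbi, Thbs2, Sfrp5, Prex1 and Dhrs1. Thbs2 is a thrombospondin, a class that astrocytes secrete to promote synapses. Of 117 genes listed only for FT, the highest were the chemokine Ccl9 with 83, 45, 80 and 30 counts, the endotoxin receptor Cd14, and Tmem119, a marker of microglia, with 39, 43, 39 and 8. Gm20594, Tgfb1, Rmrp, P2ry13, Pla2g15, Ticam2 and Slc16a10 followed. HA libraries had more reads than FT libraries, and how far this set which genes were listed was not tested.

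Coding genes higher in HA had a median transcript length of 2880 bases and a median GC content of 52.4%, lower genes 2836 bases and 50.5%, and genes not called 3564 bases and 49.4%. The lower to upper quartiles of length overlapped, at 1925 to 4722, 1594 to 4220 and 2175 to 5344 bases for the same sets. The medians of the geometric mean of HA and FT levels were 6.17, 2.92 and 2.09 CPM. These differences were not tested.

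Promoters of the genes were read for short motifs in RefSeq windows of 300 bases (GRCm38.p6), from 250 before to 50 after a gene's first listed start. Searched were the motifs TTCNNNGAA (STAT), TGANTCA (AP-1), AGGAAGT (PU.1), ACAAAGG (SOX) and CAGCTG (E-box). The PU.1 motif was found on either strand in 16.0% of 175 windows of genes lower in HA, in 5.14% of 175 of genes higher in HA, and in 7.66% of 2702 windows of all genes tested. Over all 27025 RefSeq windows of mouse it was in 9.57%. The PU.1 motif was in 4 of 10 windows of microglia and macrophage markers and in 3 of 10 of astrocyte markers. The E-box was in 21.1% of windows of lower genes, 14.3% of higher genes, 14.6% of genes tested and 16.1% of all RefSeq windows, and AP-1 in 9.14%, 6.86%, 4.89% and 7.93% of the same sets. STAT was in 6.29%, 5.71%, 6% and 8.47% of them, and SOX in 4%, 5.14%, 3.15% and 5.79%. Windows existed for 175 of 238 higher and 175 of 257 lower genes. The Gfap window is shown because this promoter drives the Cre of these mice, and the Lyz2 window because it leads the flow-through per length. Capitals mark every match on either strand to the motifs searched, and in Gfap the STAT and PU.1 matches overlap. The Gfap window lies at chr11:102897151-102897450 on the minus strand, inside the span of the gene given above and downstream of its outermost start, and the Lyz2 window at chr10:117282223-117282522 on the minus strand.
Gfap: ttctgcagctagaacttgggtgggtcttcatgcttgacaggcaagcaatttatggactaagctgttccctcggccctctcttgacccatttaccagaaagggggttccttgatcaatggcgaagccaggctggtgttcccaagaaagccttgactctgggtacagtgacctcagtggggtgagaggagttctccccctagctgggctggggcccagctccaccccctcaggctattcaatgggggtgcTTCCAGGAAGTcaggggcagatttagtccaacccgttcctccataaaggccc
Lyz2: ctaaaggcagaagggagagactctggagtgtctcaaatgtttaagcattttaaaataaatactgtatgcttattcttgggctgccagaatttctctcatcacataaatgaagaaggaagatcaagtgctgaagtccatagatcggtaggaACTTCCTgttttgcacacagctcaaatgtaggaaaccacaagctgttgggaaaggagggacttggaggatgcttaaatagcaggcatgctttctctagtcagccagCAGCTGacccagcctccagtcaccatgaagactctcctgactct
A match is a description of letters and shows no binding.

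Injury with no depot was last compared with the hydrogel groups in how HA differed from FT. Of 3295 genes tested in 20 libraries, 3 (0.091%) differed in this difference, all of them noncoding loci. Gm25911, Gm23935 and Gm15564 had a smaller HA minus FT difference in injury only than in the mean of the hydrogel groups, by -3.52 (SE 0.68), -2.65 (SE 0.53) and -3.72 (SE 0.75), each with an adjusted p of 0.0163 by edgeR with the title number as a block. Gm23935 and Gm15564 are on the list of loci that collect ribosomal RNA reads. None was called without the block, with DESeq2 size factors, or without any one of the numbers 9596, 9843, 9874 and 9935. In the 6 hydrogel FT libraries of this comparison Gm25911 had 1 to 11 counts, Gm15564 0 to 10 and Gm23935 330 to 2262, so the differences of Gm25911 and Gm15564 rest on almost no reads there. These libraries held 28285 to 144902 counts in all, against 2241508 to 5432216 in injury-only FT. Hydrogel and injury-only libraries carry separate ranges of numbers, so cohort and depot cannot be told apart.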

How the data were processed

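Spinal cord RNA of 8 libraries (4 HA, 4 FT) was analysed, with 12 hydrogel libraries for one comparison. Per the labels' protocols, cDNA was made by low-input amplification (NuGEN Ovation), fragmented and sequenced in pairs of reads. CASAVA 1.8.2, edgeR and mm10 are named in the submitters' processing notes; no aligner, counter, strand setting or annotation is stated there or in the labels. The authors deposited whole-number read counts per transcript, a table for each fraction, with smallest row totals of 10 (HA) and 11 (FT). A further 45 columns of per-sample values were not used. Amplified reads are not independent molecules, so counting error understates the spread.

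Counts were summed per gene symbol; 4781 genes were in both tables (9363 in HA, 4898 in FT). Rows without a symbol (136 and 35; 0.00272% to 0.00679% of HA and 0.00424% to 0.0133% of FT counts) were left out. Types, lengths and coordinates are of GENCODE M21 (mm10), which matched 98.3% and 99.1% of rows. HA and FT were compared with edgeR 4.0.16 in R 4.3.3 (quasi-likelihood, TMM scaling, minimum count 10, Benjamini-Hochberg, threshold 0.05), with the title number as a block. That equal numbers mark the same tissue was inferred from the series design, which takes both fractions from the same samples. Deviations of same-numbered libraries correlated at 0.0253 to 0.099, and those of different numbers at -0.0516 to 0.0213. Each of 4 HA libraries correlated best with its own FT number, but all these correlations are small, so the check is weak. Pairs of libraries within a group differed beyond sampling noise (chi-square over its degrees of freedom 4.63 to 142). The fit was first tested on simulated data. Of genes simulated at a log2 difference of -2 and 2, 20% and 34% were called, and of those at -3 and 3, 68% and 82%, with 0 false calls. A gene that is not called is therefore not shown to be unchanged.

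The members, lists and tests were chosen with earlier results of these data known. Genes were named by rule: the 14 largest differences each way (mean of at least 50 CPM in the higher fraction, same direction in 4 pairs, no ribosomal RNA or Gm loci), the 6 members of each list with the lowest adjusted p and all tested cell type markers, 10 genes listed in 1 table only, and the 10 highest per length. This gave 217 genes with tests, including 16 chosen after their values were seen (13 outside the lists, and Lamp1, Ctsb and Neat1). Alternatives and outlying libraries were computed for all 217; some are not named in the results, and a few genes that the rule names are not reported here. Alternatives were DESeq2 1.42.0 and its size factors, no TMM, other filters, loci left out, thinned HA counts, all 10 numbers, no block, and each number left out.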

Additional observations from a re-analysis of the deposited data

Results flagged for a closer look

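Of 434 groups of 4 libraries checked for the 217 named genes, 36 held a library far from the other 3. Chance flags about 1 in 20 groups, so some are expected by chance, and these values are descriptions.

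In HA, number 9874 stood apart for genes of several lists. The values were 16.1 CPM for H2-D1 (others 5.98 to 7.38), 5.52 for Tyrobp (0 to 0.57), 14.0 for Ctsz (3.54 to 5.12), 51.8 for Npc2 (14.5 to 16.4), 9.17 for Fcrls (0.122 to 1.51), 2.02 for Cst7 (0.0285 to 0.122) 2.22 for Pmp22 (0.114 to 0.42), 3.01 for H2-Eb1 (0 to 0.057), 11.3 for Ifit1 (1.22 to 2.6) and 14.7 for the matrix protein Fn1 (0.456 to 1.09). Also in HA, number 9843 held 167 CPM of Malat1 (56.5 to 67.3), number 9596 held 6.70 of Nefm (3.44 to 3.90) and 4.13 of Gpx3 (12.8 to 14.3). In number 9843 Col1a2 stood at 14.4 (0.912 to 2.93). Number 9935 held 3.42 of Lifr (0.839 to 1.05), 18.8 of Cox7c (12.4 to 13.3), 14.2 of Jund (5.30 to 6.21), 2.07 of Scg2 (0.336 to 0.345), 89.1 of Olig1 (108 to 111), and 69.2 of Slc6a11 (25.8 to 28.4).

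In FT, number 9843 held 3.69 CPM of Eef1a2 (8.38 to 9.33), 3.47 of Ccnd2 (0.614 to 1.04), 13.2 of Fabp7 (1.91 to 3.48), 4.56 of C3 (1.27 to 1.43), 14.3 of Col1a1 (4.09 to 5.08), 203 of Rplp1 (153 to 160), 6.51 of Stmn2 (7.55 to 7.62) and 0.217 of Fads2 (1.23 to 1.33). Number 9874 held 29.0 of Msn (20.2 to 20.6), 27.4 of Prdx6 (12.6 to 14.4) and 42.3 of Scd2 (70.3 to 75.6), and number 9935 held 18.4 of Myl6 (8.15 to 9.41), 5.08 of Hbegf (0.409 to 0.444), 7.62 of Btg2 (0.963 to 1.95), 3.17 of Mt3 (0.434 to 0.889) and 18.4 of Aldh1a1 (6.07 to 7.38).

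The difference between HA and FT differed between injury only and the hydrogel groups for Gm25911 (-3.52), Gm23935 (-2.65) and Gm15564 (-3.72), each with an adjusted p of 0.0163 by edgeR.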

How the results depend on the processing

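The count of genes called was 495. It was 325 where genes needed 5 CPM in 4 libraries (848 tested), and 313 to 441 with a number left out. With HA counts thinned to the FT totals it was 380 (1640 tested). Without the block (no pairing by number) it was 421, of which 395 were among the 495, and by DESeq2 699, of which 493 were. With library totals and no TMM it was 628, of which 81 were higher and 547 lower, and with all 10 title numbers 673. The 3 calls of the hydrogel comparison became 0 without the block, 10 by DESeq2, 0 with DESeq2 size factors, 7 with no low-count filter and 1 with ribosomal RNA loci left out. With 9596, 9843, 9874 or 9935 left out they became 0 each time; hydrogel numbers were not left out. At an unadjusted p under 0.05 there were 274 without the block, 179 with DESeq2 size factors and 168 to 230 with a number left out. The protein-coding difference with Lars2 kept was -0.392 (two-sided exact permutation p = 0.5).

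Of 217 genes named by the rule or chosen after their values were seen, 136 were called. Of these, 85 kept their call in every alternative that tested them, 51 lost it in at least 1, and 1 of the 51 (Yam1) also reversed. Of the 81 not called, 39 were called in at least 1 alternative. The other genes that changed sign were not called. With library totals the log2 difference became Vim -0.11, Notch3 -0.18, Col1a2 -0.15, Efnb3 -0.055, Robo1 -0.15, Tgfb2 -0.22, Eif3a -0.0097, Ireb2 -0.049, Yam1 -0.0020, Gm15564 -0.054, Erbb3 -0.086, Mki67 -0.55, Hsp90ab1 -0.29, Jun -0.0088, Jund -0.42, Glul -0.54, Fabp7 -0.28, Mog -0.11, Mobp -0.54, Tspan2 -0.25 and Cst3 -0.44. With all 10 numbers the log2 difference became Lifr 0.30, Msn 0.19, Opalin 1.17 and Thy1 0.20. With thinned HA counts the log2 difference became Jund -0.12, Glul -0.16 and Mobp -0.016. With the 5 CPM filter the log2 difference became Glul -0.011 and Mobp -0.010. With no low-count filter the log2 difference became Opalin 0.0090. With a number left out, differences that changed sign ranged over -2.48 to 0.42 for Ly6a, -0.21 to 0.99 for Tgfb2, -1.35 to 0.25 for Hmox1, -0.41 to 0.079 for Trf, -0.57 to 0.81 for Mki67, -0.17 to 0.82 for Fabp7, -0.55 to 0.13 for Mbp, -0.29 to 0.089 for Opalin and -0.87 to 0.090 for Tubb3. The causes were not tested. Depth limits FT most: number 9935 had 26899 coding counts.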

Other observations

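Genes outside the lists, chosen after their values were seen for a low adjusted p, included further genes known from astrocytes and neurons. Agt, which encodes angiotensinogen, stood at 22.6, 26.1, 42.3 and 43.6 CPM in HA against 0.889, 0.868, 2.04 and 5.08 CPM in FT, a log2 difference of 4.25. Tril, a partner of Toll-like receptors, was higher by 3.51 on the log2 scale, Tst, a mitochondrial sulfur transferase, by 3.50, Fads2, a fatty acid desaturase, by 3.93, and Slc6a11, a GABA transporter, by 2.06. Aldh1a1, a retinaldehyde dehydrogenase, averaged 47.6 ± 14.8 CPM in HA and 9.50 ± 5.97 CPM in FT.

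Slc6a5, the glycine transporter of inhibitory neurons, stood at 0.171, 0.0839, 0.148 and 0.122 CPM in HA against 11.6, 4.34, 4.09 and 16.5 CPM in FT, a log2 difference of -5.76. The presynaptic genes Cplx1, Rph3a and Syp were lower by -4.92, -3.75 and -3.30. The myeloid genes Cst7, Nckap1l and Fcrls were lower by -5.81, -5.47 and -4.40. These genes were chosen for a low adjusted p, so their adjusted p under 0.05 by edgeR was fixed by the choice and adds no support. Each kept its direction in all 4 pairs, which the choice also favoured.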
